A study of Homo sapiens with 16 samples.

Results

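The clustered histone genes of the human genome, which encode the replication-dependent histones, were followed across 16 poly(A) RNA-seq libraries. All protein-coding genes with the current symbols H1-1 to H1-6, or with symbols starting H2AC, H2BC, H3C or H4C followed by a digit, were taken. This gave 69 genes: 6 for linker histone H1, 17 for H2A, 18 for H2B, 13 for H3 and 15 for H4. They lie on chromosome 6 (55 genes), chromosome 1 (13 genes) and chromosome 12 (1 gene). Of the 69, 68 are listed in the deposited tables, against 56865 genes in all, and 28 passed the filter on low counts, against 15687 genes in all. The other 41 comprise H3C15, whose only transcript is not listed, 8 genes with 0 reads in all 16 libraries, and 32 genes with few reads. H2AC18 aside, which shares its sequence with H2AC19, none of those 32 reached more than 18 reads in any library.

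Histones H2A, H2B, H3 and H4 form the core of the nucleosome, and H1 binds the linker DNA between nucleosomes. The clustered genes are known to be transcribed mainly in S phase, when new DNA has to be packaged. Their main mRNAs are the only metazoan mRNAs known to lack a poly(A) tail: they have no introns and end a few bases after a conserved stem-loop, which is bound by the stem-loop binding protein SLBP. Many of the genes can also give longer or spliced transcripts that end at a downstream poly(A) site, and such forms are known from differentiating and growth-arrested cells. Since the libraries were made from poly(A)-selected RNA, the values below describe mainly polyadenylated forms, and the main stem-loop-ended mRNAs are expected to be captured poorly.

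The cells were NCI-H1299, an established p53-null line from a lung carcinoma of the non-small cell type, and stable NCI-H1299 cells carrying the p53Y220C mutant, whose destabilised fold the compound MS78 was made to target. Each line was given MS78 at 10 µM or the vehicle DMSO for 24 h, with 4 libraries per group, called Null DMSO and Null MS78 for the p53-null line, and Y220C DMSO and Y220C MS78 for the mutant line. G418 was in the medium of the mutant line alone, so line, transgene and G418 cannot be told apart. Whether the replicates were separate cultures is not stated in the labels, so p-values measure only the spread between these libraries, which may be technical.

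Library totals ranged from 20.3 M to 27.7 M estimated reads. Of the defining markers, VIM (3526 to 5611 CPM, counts scaled to a common library size) and KRT8 (166 to 350 CPM) were present, and EPCAM (at most 1.64 CPM), NKX2-1 (at most 0.344 CPM) and SFTPC (at most 0.0485 CPM) were at or near 0. In 8 libraries, Null DMSO 1, Null MS78 2, 3 and 4, Y220C DMSO 1 and Y220C MS78 2, 3 and 4, leukocyte transcripts were found. PTPRC, which encodes the leukocyte phosphatase CD45, had 55 to 99 reads there and 0 or 1 in the other 8. The 14 leukocyte markers summed to 54.7 to 118 CPM in the first 8 and to 2.21 to 11.8 CPM in the others, and 13 of the 14 were higher in every library of the first set. Because these libraries fall unevenly on DMSO and MS78, calls of named genes lost within either set are given below. With a term for these libraries in the fit, 0 of the 28 histone genes were called for that term by edgeR's quasi-likelihood test (smallest adjusted p = 0.248, with 7 at an unadjusted p under 0.05).

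The stem-loop and its neighbourhood are shown for 7 genes whose reads changed, because most of the reads below come from transcripts that run past this element or splice it away. Each line gives the DNA letters of the transcript 5′ to 3′ from the GENCODE 29 sequences, with the 16 bases of the stem-loop in capitals.
H2AC6: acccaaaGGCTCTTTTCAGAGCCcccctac
H2AC11: aaccaacGGCTCTTTTCAGGGCCacccacg
H2BC21: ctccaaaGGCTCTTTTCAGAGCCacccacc
H2BC5: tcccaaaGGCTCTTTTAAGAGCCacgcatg
H3C14: tccaaaaGGCTCTTTTCAGAGCCacccaca
H4C14: tcccaaaGGCCCTTTTTAGGGCCgaccact
H4C8: aaccaaaGGCCCTTTTCAGGGCCgcccact
The histone stem-loop pattern was found in 45 of 98 transcripts annotated for the 69 genes and in 337 of 206436 other transcripts (0.163%). A model without it often stops at the coding end, so its absence says only that these letters are not in that model.

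Reads of the listed genes were therefore divided by the structure of the transcript they were assigned to, using those whose length equals the annotated one. Spliced transcripts (24 transcripts of 10 genes) held 38.6% of all clustered histone reads. Some of them keep the stem-loop: the most abundant, of H2AC6 (12282.5 reads), holds it and runs 1114 bases past it. Unspliced transcripts running more than 100 bases past the stem-loop (14 genes) held 30.8%. Unspliced models with no stem-loop (36 genes) held 20.2%, unspliced transcripts ending near the stem-loop (8 genes) held 8.16%, and models of another length 2.33%. The reads were concentrated in few genes: the 7 genes with most reads held 68.2% of them.

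**Figure D1:**
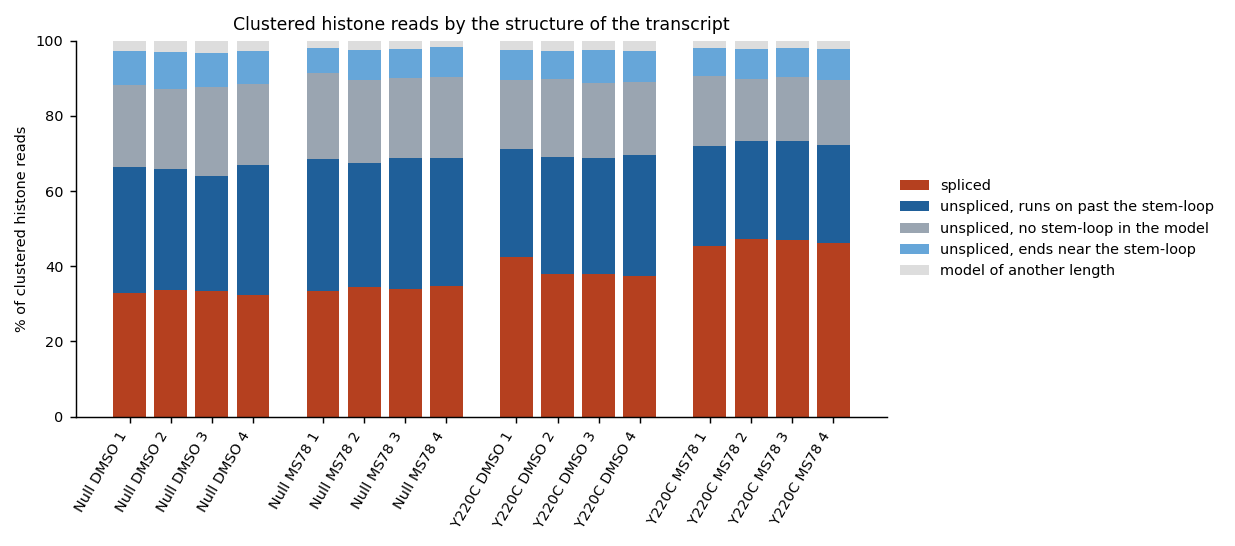
Share of clustered histone reads (%, y axis) by the structure of the transcript they were assigned to, 1 stacked bar per library. Spliced transcripts took 45.5% to 47.3% in the 4 Y220C MS78 libraries and 32.4% to 42.6% in the other 12.

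The spliced share was 33.1% ± 0.61 (SD, n = 4) in Null DMSO, 34.1% ± 0.56 in Null MS78, 39.0% ± 2.43 in Y220C DMSO and 46.5% ± 0.86 in Y220C MS78. All 4 Y220C MS78 libraries lay above all others, and the Null DMSO and Null MS78 ranges overlapped (32.4% to 33.8% and 33.5% to 34.7%). The share of unspliced transcripts running past the stem-loop was lowest in Y220C MS78, at 26.3% ± 0.30, against 30.7% ± 1.61 in Y220C DMSO. All listed transcripts of H2AC6, the clustered gene with most reads (17763), are spliced. A change in the level of that gene alone therefore moves the spliced share. These shares sum over the genes and were not tested.

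Summed over the 68 listed genes, clustered histone reads were 183 to 203 CPM in Null DMSO and 211 to 221 CPM in Null MS78. They were 195 to 202 CPM in Y220C DMSO and 288 to 301 CPM in Y220C MS78. H2A and H2B genes gave most of these reads. In the Y220C line the H4 sum was 15.4 ± 1.16 CPM under DMSO and 31.2 ± 1.08 CPM under MS78 (SD, n = 4), and in the p53-null line it was 16.8 ± 1.83 and 15.4 ± 0.70 CPM. The sums over H2B were 71.3 ± 4.76 and 89.9 ± 1.80 CPM in the p53-null line and 72.0 ± 2.06 and 102 ± 4.83 CPM in the Y220C line. In bulk RNA, a change in the number of cells that express a gene and a change in RNA per cell cannot be told apart.

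**Figure D2:**
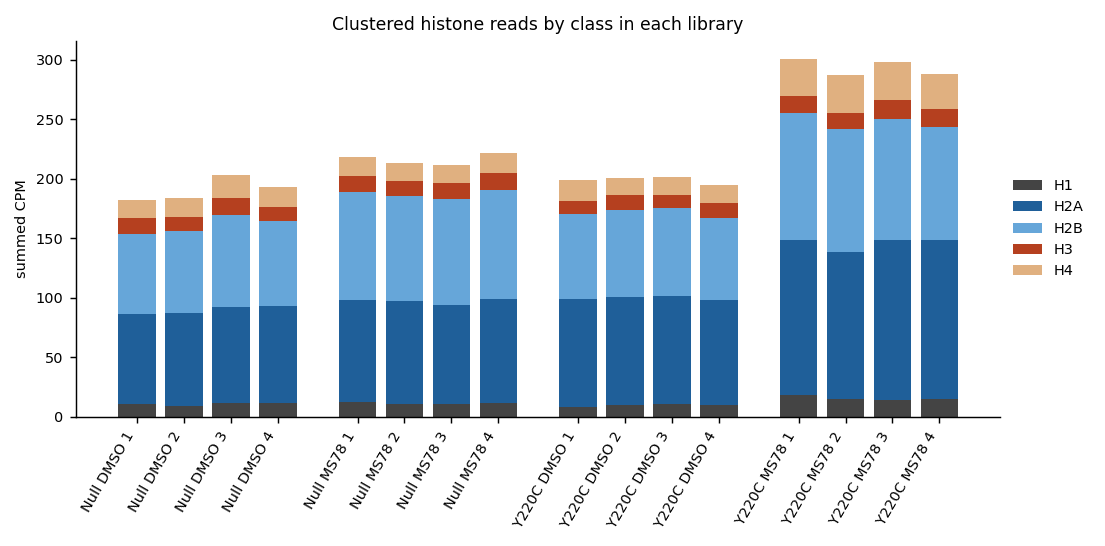
Summed CPM (y axis) of the H1, H2A, H2B, H3 and H4 clustered genes in each library, 1 stacked bar per library. The 4 Y220C MS78 libraries reach 288 to 301 CPM and the other 12 stay between 183 and 221 CPM.

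MS78 was compared with DMSO in each line by edgeR's quasi-likelihood test with Benjamini-Hochberg adjustment over all 15687 genes, and a gene is called where the adjusted p is under 0.05. In p53-null cells 6 of the 28 tested histone genes were called higher and 0 lower, where 14.8% of all tested genes were called higher and 13.3% lower. At an unadjusted p under 0.05, 1 was lower. DESeq2 called the same 6 higher and 0 lower there. In Y220C cells 14 of 28 were called higher and 3 lower, against 24.9% and 23.6% of all tested genes. DESeq2 called 13 higher and 4 lower there, losing H4C15 and H4C16 and adding, among the lower, H2BC13 and H4C5, which edgeR's filter had left out. The median log2 fold change over the 28 genes was 0.02 in p53-null cells and 0.37 in Y220C cells, beside 0.01 and -0.01 over all tested genes. The difference between the responses, Y220C minus p53-null, was called for 9 of the 28, 8 positive and 1 negative, against 14.4% and 12.4% of all tested genes. Between the lines under DMSO, 4 were higher in Y220C cells and 2 lower, against 24.7% and 25.5% of all tested genes. Null DMSO enters both the p53-null response and the comparison of the lines, and Y220C DMSO enters both the Y220C response and the comparison of the lines.

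**Figure D3:**
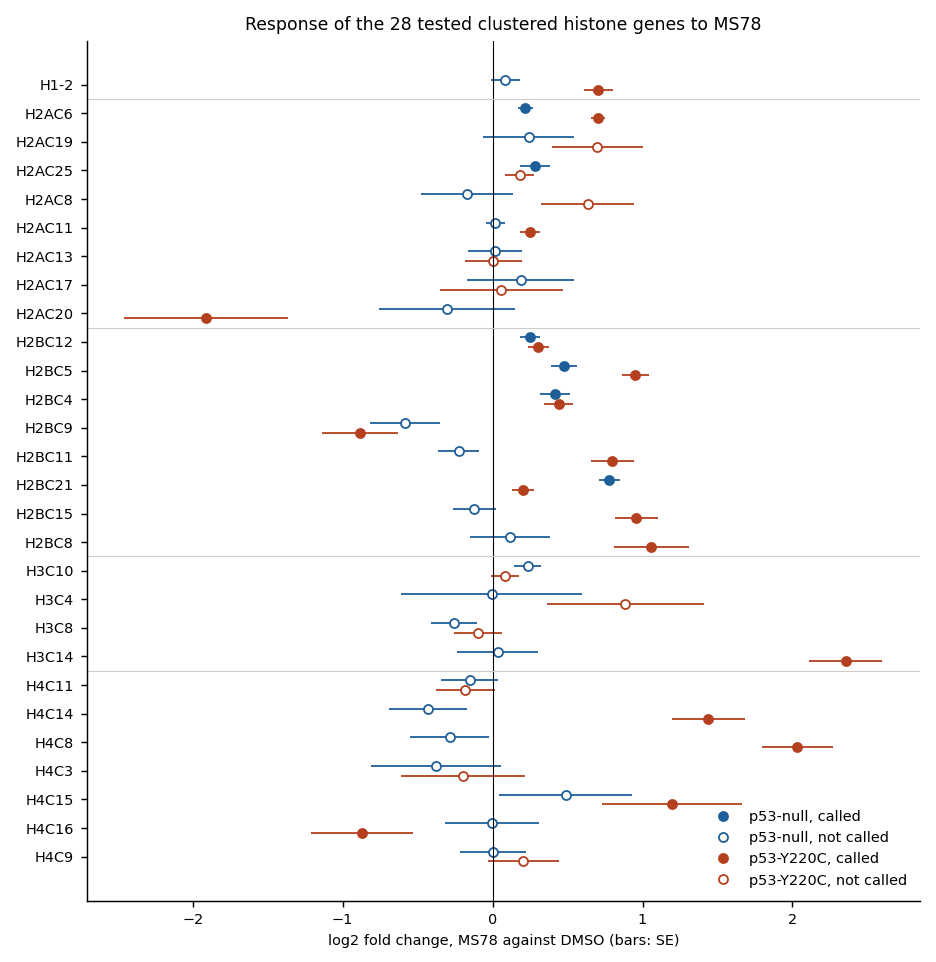
log2 fold change of MS78 against DMSO (x axis, bars are SE) for the 28 tested genes in p53-null (blue) and Y220C cells (red), filled where called and open where not. H3C14, H4C8 and H4C14 lie at 2.35, 2.03 and 1.44 in Y220C cells and at or below 0.03 in p53-null cells.

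The fit was repeated among libraries with PTPRC reads alone (1 DMSO and 3 MS78 libraries per line). It was also repeated among libraries without them (3 DMSO and 1 MS78 per line). In both, the lone library was taken to vary like the others. Fewer histone genes were called higher in each line than in all libraries. Calls over all genes fell too, in p53-null cells and for the difference of the responses in both sets, and in Y220C cells in the second. Calls over all genes in Y220C cells in the first set are not reported here. Of the 14 genes called higher in Y220C cells, 9 kept the call in each set, and H2BC21, H2BC4 and H4C15 lost it in both. The 3 genes called lower there lost the call in both sets, with values of -2.0 and -2.17 for H2AC20, -0.77 and -0.82 for H2BC9 and -0.98 and -1.52 for H4C16, and kept it with the term for these libraries in the fit. Of the positive differences of the responses, those of H2AC6, H2BC11 and H2BC5 lost the call in the first set. H2AC19, not called in all libraries, was called there. In the second set H2AC6 alone kept the call. The values there were 2.03 for H3C14, 2.34 for H4C8, 1.71 for H4C14 and 0.69 for H1-2, none of them called.

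Linker histone H1 was represented by H1-2 (older name HIST1H1C; chromosome 6, 26055787 to 26056428), one of the somatic H1 subtypes. The other 5 H1 genes had at most 9 reads in any library. H1-2 was at 10.4, 9.01, 10.9 and 11.1 CPM in Null DMSO and at 12.1, 10.4, 10.6 and 11 CPM in Null MS78. Its Y220C DMSO values were 8.14, 9.90, 9.81 and 9.51 CPM and the Y220C MS78 values were 18.2, 14.2, 13.6 and 14.9 CPM. Every Y220C MS78 library was above all 12 others, and the p53-null groups overlapped. H1-2 rose 1.63-fold in Y220C cells (log2 fold change 0.70, SE 0.10, adjusted p = 3.81e-06), was at 0.08 (SE 0.10) in p53-null cells, and the responses differed by 0.62 (SE 0.14, adjusted p = 0.00186). Its deposited model holds 642 bases and no stem-loop.

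Of the 8 tested H2A genes, 2 rose in p53-null cells, where 14.8% of all tested genes were called higher. In Y220C cells 2 rose and 1 fell, where 24.9% of all tested genes were called higher and 23.6% lower. The share that rose there was near that of all tested genes. Per length, H2AC6, H2AC19 and H2AC25 were the most abundant, at means over the 16 libraries of 47.6, 46.6 and 23.2 TPM (reads per length, scaled to a common total). H2AC6 (HIST1H2AC; chromosome 6, 26124145 to 26139116) was at 31.2, 34.4, 35.0 and 34.1 CPM in Null DMSO and 38.7, 39.6, 38.2 and 40.5 CPM in Null MS78. It was at 52.0, 49.0, 50.1 and 45.6 CPM in Y220C DMSO and 80.1, 76.5, 84.5 and 79.1 CPM in Y220C MS78. The 4 groups did not overlap, with Null DMSO lowest and Y220C MS78 highest. MS78 raised H2AC6 1.16-fold in p53-null cells (log2 fold change 0.22, SE 0.05, adjusted p = 0.00189) and 1.63-fold in Y220C cells (0.70, SE 0.05, adjusted p = 9.29e-11). The responses differed by 0.48 (SE 0.07, adjusted p = 2.05e-05), and under DMSO the gene was 1.46-fold higher in Y220C than in p53-null cells (adjusted p = 1.2e-08). Within the libraries without PTPRC reads the p53-null response was 0.16, and within those with them the difference of the responses was 0.31, neither called.

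H2AC11 (HIST1H2AG; chromosome 6, 27133042 to 27135291) went the other way between the lines. It was at 20.3 to 23.4 CPM in Null DMSO, at 21 to 22.8 CPM in Null MS78, at 14.7 to 18 CPM in Y220C DMSO and at 18.3 to 20.4 CPM in Y220C MS78. Under DMSO it was lower in Y220C cells (log2 fold change -0.40, SE 0.07, adjusted p = 4.9e-05), and there MS78 raised it 1.19-fold (0.25, SE 0.07, adjusted p = 0.00499). In the libraries without PTPRC reads that rise was 0.14 and not called. The difference of the responses, 0.23, was not called (adjusted p = 0.0765), and without Y220C DMSO 4 it was 0.28 and called.

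H2AC25 (HIST3H2A; chromosome 1, 228456979 to 228457873) was higher in Y220C cells under DMSO, at 10.4 to 13.2 CPM against 6.98 to 9.31 CPM in Null DMSO (log2 fold change 0.53, SE 0.10, adjusted p = 0.000162). With the single DMSO library per line that held PTPRC reads, that difference was 0.15 and not called. Its rise with MS78 in p53-null cells was small (log2 fold change 0.28, SE 0.10, adjusted p = 0.0378), with overlapping groups. Leaving out Null DMSO 2, 3 or 4 or Null MS78 1 or 4 ended that call (0.22 to 0.30), and the value was 0.03 within the libraries with PTPRC reads and 0.40 without them, and 0.29 with length-scaled TPM, none of them called. In Y220C cells the response was 0.18 (SE 0.10, not called) and, without Y220C DMSO 2, 0.25, which was called.

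H2AC20 (HIST2H2AC; chromosome 1, 149886975 to 149887364) was among the scarcest tested genes, with 1 to 6 reads per library in Y220C MS78 and 4 to 16 in Y220C DMSO. The fitted log2 fold change in Y220C cells was -1.91 (SE 0.55, adjusted p = 0.00648), and the groups overlapped. In p53-null cells it was -0.30 (SE 0.45). The difference of the responses, -1.61, was not called, and without Y220C MS78 4 it was -2.47 and called. Of the 31-base words of this gene 50.6% occur in other genes, so its reads are uncertain.

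H2AC19 and H2AC18 are twin genes: all 31-base words of H2AC18 occur in H2AC19. The quantifier split their reads unevenly, giving H2AC18 9.14 CPM in Null DMSO 2 and 3.56 CPM in Y220C DMSO 1 and 0 in the other 14 libraries. H2AC19 alone was not called in Y220C cells (log2 fold change 0.70, SE 0.30, adjusted p = 0.0646). It was called without Null DMSO 2, which shares the fit (0.70), and the difference of the responses was then also called (0.80). Both were called within the libraries with PTPRC reads too (1.38 and 1.30), as was the line difference under DMSO (-0.88). The only Y220C DMSO library of that set is Y220C DMSO 1, whose reads were split. Summed, an analysis chosen after seeing the data, the twins were at 9.31 to 11.1 CPM in Null DMSO, 9.45 to 9.90 CPM in Null MS78, 8.35 to 8.97 CPM in Y220C DMSO and 11.2 to 14.2 CPM in Y220C MS78. The sum rose in Y220C cells (0.54, SE 0.08, adjusted p = 8.21e-06) and was at -0.11 (SE 0.08) in p53-null cells. The responses differed by 0.65 (SE 0.11, adjusted p = 0.000168). Under DMSO the sum was lower in Y220C than in p53-null cells (-0.27, SE 0.08, adjusted p = 0.00665). The 3 remaining tested genes, H2AC8, H2AC13 and H2AC17, were not called in any comparison of the main fit. H2AC8 was called higher in Y220C cells without Y220C DMSO 2.

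**Figure D4:**
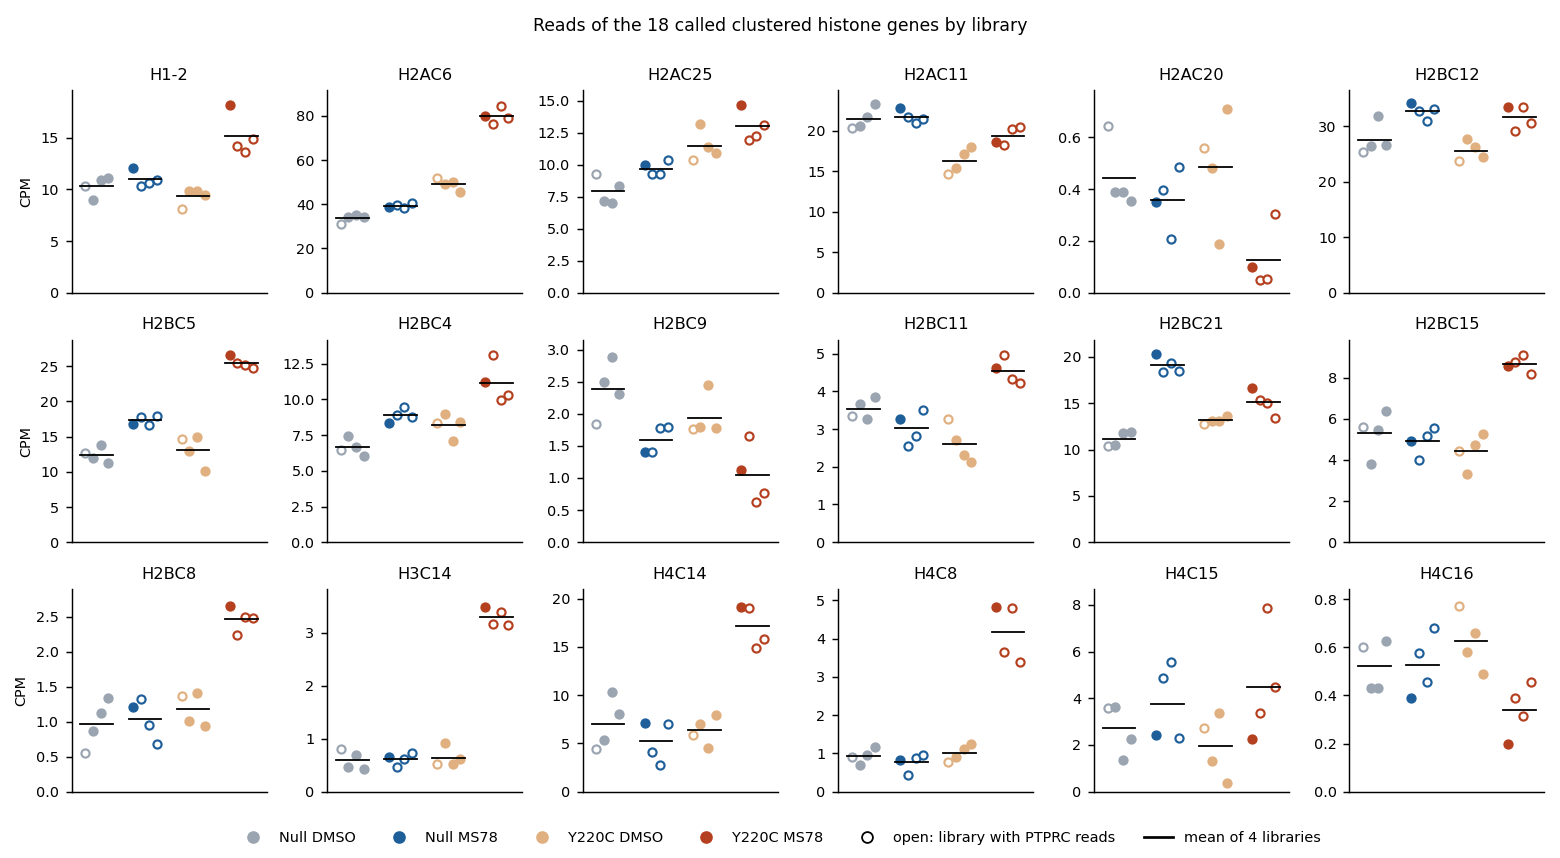
CPM (y axis, from 0) in each library for the 18 genes called in at least 1 comparison, 1 panel per gene, points by group, lines at group means and open points for libraries with PTPRC reads. H3C14, H4C8, H4C14 and H2BC15 stand high in Y220C MS78 alone, and H2BC21 is highest in Null MS78.

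H2B was the class with most calls: 4 of its 8 tested genes rose in p53-null cells. In Y220C cells 7 rose and 1 fell. Of all tested genes, 14.8% were called higher in p53-null cells, and 24.9% higher and 23.6% lower in Y220C cells. Per length, H2BC12 (HIST1H2BK; chromosome 6, 27146418 to 27146798) was by far the most abundant clustered histone gene, at a mean of 284 TPM over the 16 libraries, followed in its class by H2BC5 (50.2 TPM) and H2BC4 (33.3 TPM). The deposited model of H2BC12 holds the 381 coding bases alone, so only its coding sequence was quantified. Its TPM rests on this short length. By reads over the 16 libraries H2AC6 had more (17763 against 10598.8). H2BC12 was at 25.4, 26.3, 31.8 and 26.6 CPM in Null DMSO and 34.2, 32.8, 31 and 33.1 CPM in Null MS78. The Y220C DMSO libraries stood at 23.7, 27.8, 26.3 and 24.5 CPM and the Y220C MS78 values were 33.4, 29.1, 33.4 and 30.5 CPM. It rose 1.19-fold in p53-null cells (log2 fold change 0.25, SE 0.07, adjusted p = 0.00804), where 1 DMSO library reached into the MS78 range, and 1.24-fold in Y220C cells (0.31, SE 0.07, adjusted p = 0.00108), where none did. The responses differed by 0.06 (SE 0.10, not called). Within the libraries without PTPRC reads the rises were 0.27 and 0.35, neither called. Of its 31-base words 86.3% occur elsewhere, and 74.4% in a near copy on chromosome 21 (H2BFS in the annotation) that is listed at 0 in all 16 libraries.

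H2BC5 (HIST1H2BD; chromosome 6, 26158146 to 26171349) rose in both lines and more in Y220C cells. It was at 12.7, 11.9, 13.8 and 11.2 CPM in Null DMSO and 16.8, 17.9, 16.7 and 17.9 CPM in Null MS78. In Y220C DMSO it was at 14.6, 12.9, 14.9 and 10.2 CPM and in Y220C MS78 at 26.6, 25.5, 25.2 and 24.7 CPM. The DMSO groups overlapped each other and neither overlapped its MS78 group. The rise was 1.39-fold in p53-null cells (log2 fold change 0.48, SE 0.09, adjusted p = 0.000315) and 1.94-fold in Y220C cells (0.95, SE 0.09, adjusted p = 1.61e-08), and the responses differed by 0.48 (SE 0.12, adjusted p = 0.00736). With length-scaled TPM that difference was 0.43 and not called, and within the libraries with and without PTPRC reads it was 0.35 and 0.63, neither called. The p53-null rise was 0.44 in the latter, not called. Under DMSO the lines differed by 0.08 (SE 0.09, not called), and without Y220C DMSO 4 by 0.19, which was called.

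H2BC21 (HIST2H2BE; chromosome 1, 149884459 to 149886652), an H2B gene known to give polyadenylated mRNA in differentiated cells, was the only gene with a called difference in the other direction. It was at 10.3, 10.5, 11.8 and 11.9 CPM in Null DMSO and 20.3, 18.3, 19.4 and 18.5 CPM in Null MS78. Its Y220C DMSO values were 12.8, 13.1, 13.1 and 13.6 CPM and the Y220C MS78 values were 16.7, 15.4, 15.1 and 13.4 CPM. All Null MS78 libraries were above the other 12, and 1 Y220C MS78 library fell within the Y220C DMSO range. The rise was 1.72-fold in p53-null cells (log2 fold change 0.78, SE 0.07, adjusted p = 1.87e-08) and 1.15-fold in Y220C cells (0.20, SE 0.07, adjusted p = 0.0223). The responses differed by -0.58 (SE 0.10, adjusted p = 0.000206), and this was -0.50 and not called in the libraries without PTPRC reads. The rise in Y220C cells was 0.20 within the libraries with PTPRC reads and 0.33 without them, neither called. The small rise in Y220C cells was no longer called without Y220C DMSO 1 (0.19) or Y220C MS78 1 (0.15), with no filter on low counts (0.19) or with length-scaled TPM (0.19). Under DMSO the gene was 1.18-fold higher in Y220C cells (adjusted p = 0.00895), a log2 difference of 0.24 that was 0.29 within the libraries with PTPRC reads and 0.22 without them, neither called.

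H2BC4 (HIST1H2BC; chromosome 6, 26114873 to 26123926) rose in both lines. It was at 6.04 to 7.46 CPM in Null DMSO, 8.36 to 9.49 CPM in Null MS78, 7.09 to 8.98 CPM in Y220C DMSO and 9.96 to 13.1 CPM in Y220C MS78. The rise was 1.34-fold (log2 fold change 0.42, SE 0.10, adjusted p = 0.00287) in p53-null cells and 1.36-fold (0.44, SE 0.10, adjusted p = 0.000805) in Y220C cells, and MS78 and DMSO groups did not overlap in either line. Neither rise was called within the libraries with PTPRC reads (0.48 and 0.42) or without them (0.31 and 0.46). The difference of the responses was 0.02 (SE 0.14, not called). Under DMSO it was 1.24-fold higher in Y220C cells (adjusted p = 0.0157), a call lost without Null DMSO 4 or Y220C DMSO 2 (0.26 in each case), and within the libraries with PTPRC reads (0.37) or without them (0.28), beside 0.31 in all libraries.

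H2BC15 (HIST1H2BN; chromosome 6, 27837760 to 27865798) rose in Y220C cells. It was at 5.58, 3.79, 5.47 and 6.40 CPM in Null DMSO, and at 4.94, 4.00, 5.18 and 5.53 CPM in Null MS78. The Y220C DMSO libraries stood at 4.41, 3.33, 4.74 and 5.24 CPM and the Y220C MS78 values were 8.54, 8.76, 9.07 and 8.17 CPM. The first 3 groups overlapped and the fourth stood above them. The rise was 1.94-fold in Y220C cells (log2 fold change 0.96, SE 0.14, adjusted p = 1.38e-05), the value in p53-null cells was -0.12 (SE 0.15), and the responses differed by 1.08 (SE 0.21, adjusted p = 0.000549). Within the libraries without PTPRC reads that difference was 1.03 and not called. Under DMSO the lines differed by -0.26 (not called), and without Null DMSO 2 by -0.39 and with length-scaled TPM by -0.44, both called. Its annotated span overlaps H2AC15 on the opposite strand and H2AC16 on the same strand, and whether strand was used in the authors' quantification is not given in the sources used here.

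H2BC11 (HIST1H2BJ; chromosome 6, 27125897 to 27132750) was at 3.27 to 3.85 CPM in Null DMSO, 2.56 to 3.49 CPM in Null MS78, 2.13 to 3.26 CPM in Y220C DMSO and 4.21 to 4.96 CPM in Y220C MS78. It was lower in Y220C cells under DMSO (log2 fold change -0.44, SE 0.14, adjusted p = 0.0138) and rose 1.74-fold with MS78 there (0.80, SE 0.14, adjusted p = 8.73e-05). The responses differed by 1.03 (SE 0.20, adjusted p = 0.000628). That difference was not called with length-scaled TPM (0.92), within the libraries with PTPRC reads (0.68) or without them (1.1). In the libraries with PTPRC reads the rise was 0.47 and not called and the line difference -0.05, and without Y220C DMSO 4 the line difference was -0.35 and not called, as with length-scaled TPM (-0.37).

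H2BC8 (HIST1H2BG; chromosome 6, 26215159 to 26216692) rose 2.08-fold in Y220C cells, from 0.933 to 1.41 CPM under DMSO to 2.24 to 2.65 CPM under MS78 (a log2 fold change of 1.06, SE 0.25, adjusted p = 0.00154). In p53-null cells its value was 0.11 (SE 0.27). The responses differed by 0.94 (adjusted p = 0.063, not called), and were called different without Null DMSO 1 (1.13) or Null MS78 2 (1.09). In the libraries with PTPRC reads the rise in Y220C cells was 0.82 and not called.

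H2BC9 (HIST1H2BH; chromosome 6, 26251651 to 26253710) fell. It was at 1.84 to 2.89 CPM in Null DMSO, 1.40 to 1.79 CPM in Null MS78, 1.76 to 2.44 CPM in Y220C DMSO and 0.626 to 1.65 CPM in Y220C MS78, with no overlap of MS78 and DMSO in either line. The log2 fold change was -0.88 (SE 0.25, adjusted p = 0.00672) in Y220C cells and -0.59 (SE 0.23, adjusted p = 0.0694) in p53-null cells. The second value was called without Null DMSO 1 (-0.69) or Y220C MS78 2 (-0.59). The difference of the responses was -0.30 (SE 0.34, not called).

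Of the 4 tested H3 genes, 1 was called higher in Y220C cells, near the 24.9% of all tested genes. H3C14 (HIST2H3C; chromosome 1, 149839538 to 149841193) was at 0.815, 0.474, 0.689 and 0.432 CPM in Null DMSO and 0.661, 0.468, 0.622 and 0.727 CPM in Null MS78. In Y220C DMSO it was at 0.514, 0.917, 0.517 and 0.622 CPM and in Y220C MS78 at 3.49, 3.16, 3.39 and 3.15 CPM. The first 3 groups overlapped and the Y220C MS78 group was several times higher, with 62 to 71 reads per library against 11 to 19 in Y220C DMSO. The rise was 5.11-fold (log2 fold change 2.35, SE 0.25, adjusted p = 1.06e-07), the value in p53-null cells 0.03 (SE 0.27), and the responses differed by 2.32 (SE 0.37, adjusted p = 9e-05). Of its 31-base words 11.4% occur on the same strand in other listed genes and 20.4% on either strand. These shares leave out H3C15, which is not listed and whose annotated model has the same 1656 bases of length and the same stem-loop site. Whether reads of H3C15 were assigned to H3C14 was not tested.

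Among the tested H3 genes, H3C10, H3C4 and H3C8 had the highest levels per length, at means of 11, 3.39 and 1.67 TPM. H3C10 (HIST1H3H; chromosome 6, 27810064 to 27811300) was at 7.93 to 8.27 CPM in Null DMSO, 8.24 to 10.8 CPM in Null MS78, 6.62 to 7.51 CPM in Y220C DMSO and 6.96 to 8.60 CPM in Y220C MS78. It was not called in p53-null cells (log2 fold change 0.23, SE 0.09, adjusted p = 0.0535), where it was called without Null MS78 2 (0.30) or Y220C MS78 3 (0.23). In Y220C cells its value was 0.08 (SE 0.09). H3C8 was at -0.26 (SE 0.15) and -0.10 (SE 0.16) in p53-null and Y220C cells, and H3C4, with 1 to 25 reads per library, at 0.00 (SE 0.60) and 0.88 (SE 0.52), none of them called.

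Of the 7 tested H4 genes, 3 rose and 1 fell in Y220C cells and 0 were called in p53-null cells by edgeR's test, also at an unadjusted p under 0.05. Of all tested genes, 24.9% were called higher and 23.6% lower in Y220C cells, and 14.8% higher and 13.3% lower in p53-null cells. H4C8 (HIST1H4H; chromosome 6, 26277609 to 26285638) was at 0.901, 0.690, 0.948 and 1.18 CPM in Null DMSO and 0.817, 0.432, 0.870 and 0.970 CPM in Null MS78. Its Y220C DMSO values were 0.771, 0.917, 1.13 and 1.24 CPM and the Y220C MS78 values were 4.81, 3.65, 4.80 and 3.40 CPM. The Y220C MS78 libraries, with 67 to 98 reads, stood above the other 12, which overlapped. H4C8 rose 4.09-fold (log2 fold change 2.03, SE 0.24, adjusted p = 4.59e-07), was at -0.29 (SE 0.26) in p53-null cells, and the responses differed by 2.32 (SE 0.35, adjusted p = 5.93e-05). None of its 31-base words occurs in another gene. Its listed transcript ends 18 bases after the stem-loop. The annotation holds 3 further H4C8 transcripts that run 630 to 1655 bases past it, which the deposited tables do not list.

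H4C14 (HIST2H4A; chromosome 1, 149832659 to 149839767) and H4C15 (HIST2H4B; chromosome 1, 149854045 to 149861210) are another near-identical pair: 89.3% and 96.9% of their 31-base words are shared. H4C14 was at 4.42, 5.35, 10.3 and 8.01 CPM in Null DMSO and 7.12, 4.07, 2.82 and 6.98 CPM in Null MS78. The Y220C DMSO libraries stood at 5.91, 7.0, 4.51 and 7.96 CPM and the Y220C MS78 values were 19.1, 19, 14.9 and 15.8 CPM. The Y220C MS78 libraries were the highest of the 16 and the other groups overlapped. H4C14 rose 2.71-fold in Y220C cells (log2 fold change 1.44, SE 0.24, adjusted p = 5.53e-05), and the responses differed by 1.87 (SE 0.36, adjusted p = 0.000565). In p53-null cells its value was -0.43 (SE 0.26, not called), which was called with no filter on low counts (-0.44). H4C15 was called higher in Y220C cells too (1.2, SE 0.47, adjusted p = 0.0397) with overlapping groups, a call lost without Y220C DMSO 2 or 4 or Y220C MS78 3 or 4 (0.79 to 1.2), in DESeq2 (1.21), and with the term for PTPRC libraries (0.78). Within the libraries with PTPRC reads it was 0.93 and without them 0.44, neither called. Summed, again after seeing the data, the pair was at 8.02 to 11.7 CPM in Null DMSO, 8.37 to 9.53 CPM in Null MS78, 7.89 to 8.66 CPM in Y220C DMSO and 20.3 to 22.7 CPM in Y220C MS78. The sum rose in Y220C cells (1.39, SE 0.09, adjusted p = 5.73e-11) and was at -0.11 (SE 0.09) in p53-null cells. Under DMSO it was lower in Y220C than in p53-null cells (-0.23, SE 0.09, adjusted p = 0.0444). H4C14 also overlaps H3C14 by 230 bases on the opposite strand, where, without strand, their reads cannot be told apart.

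H4C16 (HIST4H4; chromosome 12, 14767999 to 14771131) was called lower in Y220C cells from 4 to 9 reads per library against 11 to 18 (log2 fold change -0.87, SE 0.34, adjusted p = 0.04). The call was lost without any of Y220C DMSO 1, 2 or 3 or Y220C MS78 1, 2 or 3 (-0.95 to -0.68), in DESeq2 (-0.88) and with length-scaled TPM (-0.35). H4C11 (HIST1H4J; chromosome 6, 27824108 to 27824480) had the highest level per length among H4 genes, 29.3 TPM, beside 28.3 TPM for H4C14 and 15.4 TPM for H4C8. Its values were -0.15 (SE 0.19) and -0.18 (SE 0.20) in p53-null and Y220C cells, neither called. H4C3 and H4C9 were not called in any comparison of the main fit. Between the lines under DMSO, H4C9 was at -0.54 (SE 0.23) there. It was called lower in Y220C cells with the term for PTPRC libraries, and without Null DMSO 1, Null MS78 1 or Y220C DMSO 4.

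The transcripts of the same genes were tested over 47159 transcripts, of which 37 belong to the clustered histone genes. In Y220C cells 15 were called higher and 1 lower, against 7.75% and 7.37% of all transcripts tested. With no filter on low counts 10 were called higher and 0 lower, over 82 transcripts of these genes. In p53-null cells 2 were called higher and 0 lower by edgeR's test (0 lower also at an unadjusted p under 0.05), against 3.38% and 2.28%. Of the 15 called higher in Y220C cells, 7 were spliced, of 12 spliced tested, and 4 ran past the stem-loop unspliced, of 11 tested.

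**Figure D5:**
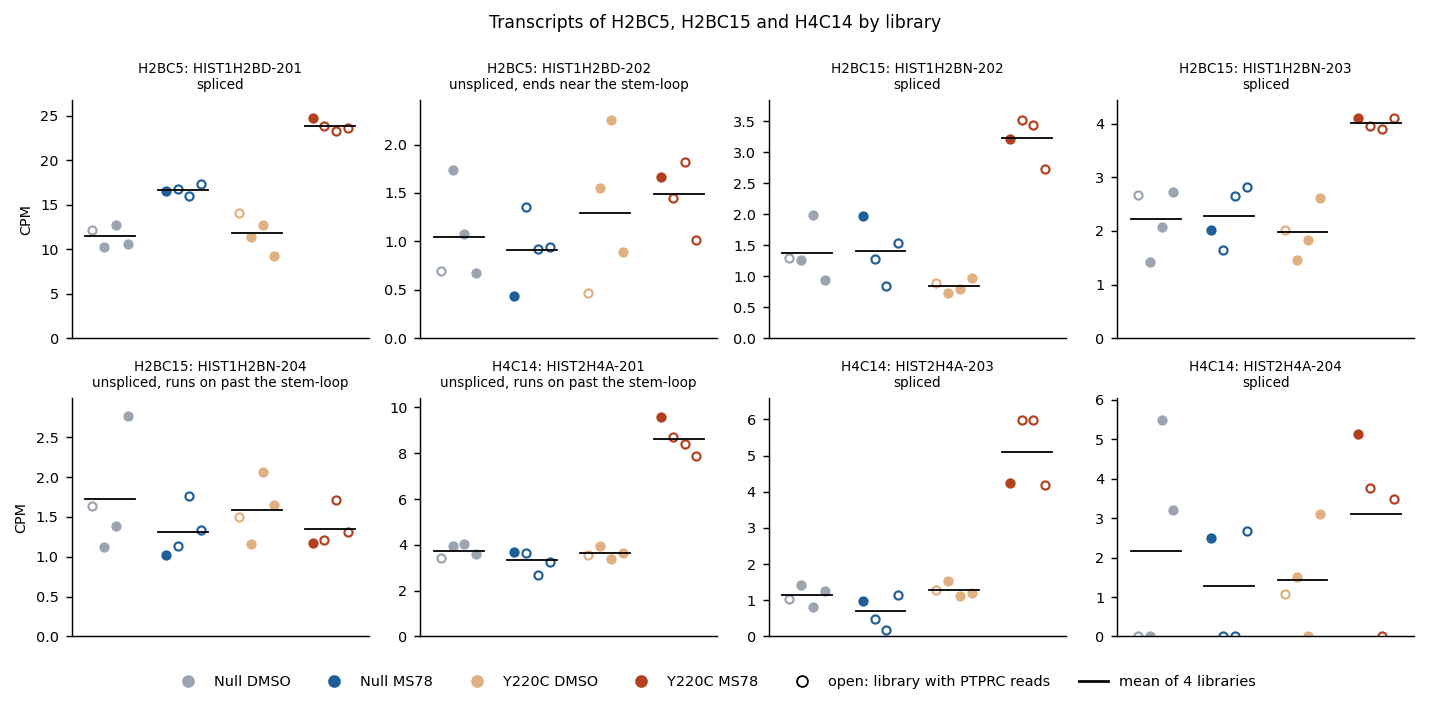
CPM (y axis, from 0) by library for the tested transcripts of H2BC5, H2BC15 and H4C14, titled with the structure of each transcript, lines at group means and open points for libraries with PTPRC reads. The spliced H2BC5 and H2BC15 transcripts are high in Y220C MS78 and the unspliced ones overlap across all 4 groups.

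H2BC5 gives a spliced transcript of 789 bases without the stem-loop and an unspliced one ending 39 bases after it. The spliced transcript was at 11.4 ± 1.2 CPM in Null DMSO, 16.7 ± 0.54 in Null MS78, 11.9 ± 2.06 in Y220C DMSO and 23.9 ± 0.62 in Y220C MS78 (SD, n = 4). It rose in p53-null cells (log2 fold change 0.54, SE 0.11, adjusted p = 0.00561) and in Y220C cells (1.01, SE 0.11, adjusted p = 9.87e-06), while the unspliced one, at 0.91 to 1.49 CPM on average, had values of -0.19 (SE 0.48) and 0.20 (SE 0.47), not called.

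For H2BC15, 2 spliced transcripts without the stem-loop rose in Y220C cells, one from 0.85 ± 0.11 to 3.23 ± 0.36 CPM (a log2 fold change of 1.92, SE 0.28, adjusted p = 0.000219) and one from 1.98 ± 0.49 to 4.02 ± 0.10 CPM (1.02, SE 0.24, adjusted p = 0.0098). The unspliced transcript running 377 bases past the stem-loop was at 1.59 ± 0.38 and 1.35 ± 0.25 CPM (-0.23, SE 0.30, not called). The difference between the transcripts of one gene was not itself tested.

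For H4C14 the unspliced transcript, which runs 194 bases past the stem-loop, rose too, from 3.64 ± 0.24 to 8.63 ± 0.71 CPM in Y220C cells (a log2 fold change of 1.25, SE 0.13, adjusted p = 7.4e-06), and so did a spliced one (1.98, SE 0.41, adjusted p = 0.00379). A second spliced transcript swung between 0 and 5.48 CPM within a group and was not called. In H2AC6 the spliced transcript of 1462 bases rose in Y220C cells from 8.58 ± 1.78 to 17.9 ± 1.14 CPM (1.06, SE 0.18, adjusted p = 0.000931). The most abundant spliced H2AC6 transcript went from 33.7 ± 5.64 to 51.9 ± 10.1 CPM (0.63, SE 0.21, adjusted p = 0.065, not called). For H2BC21, whose single transcript runs 1729 bases past the stem-loop, the rise in p53-null cells was 0.80 (SE 0.08, adjusted p = 6.31e-06).

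Promoter sequences are shown for 4 genes whose responses to MS78 differed between the lines, 1 of them in the opposite direction. The 250 bases before the RefSeq start site are given 5′ to 3′ on the gene's strand (GRCh38.p14), with 3 motifs in capitals on either strand. The first is CCAAT, which reads ATTGG on the other strand. The second is TATAAA, which reads TTTATA there. The third is ATTTGCAT, which reads ATGCAAAT there.
H2BC21, chr1:149886683-149886932, minus strand: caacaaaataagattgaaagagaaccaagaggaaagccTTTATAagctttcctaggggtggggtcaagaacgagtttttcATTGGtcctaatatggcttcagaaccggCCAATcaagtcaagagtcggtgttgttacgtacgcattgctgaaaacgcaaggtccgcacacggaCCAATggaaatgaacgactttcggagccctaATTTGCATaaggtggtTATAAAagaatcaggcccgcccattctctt
H2BC5, chr6:26157871-26158120, plus strand: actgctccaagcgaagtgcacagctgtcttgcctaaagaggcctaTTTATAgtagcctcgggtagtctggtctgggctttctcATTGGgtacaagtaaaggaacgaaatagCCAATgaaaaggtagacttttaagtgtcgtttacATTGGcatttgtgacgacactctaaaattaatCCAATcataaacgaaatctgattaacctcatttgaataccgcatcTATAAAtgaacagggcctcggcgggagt
H3C14, chr1:149841209-149841458, minus strand: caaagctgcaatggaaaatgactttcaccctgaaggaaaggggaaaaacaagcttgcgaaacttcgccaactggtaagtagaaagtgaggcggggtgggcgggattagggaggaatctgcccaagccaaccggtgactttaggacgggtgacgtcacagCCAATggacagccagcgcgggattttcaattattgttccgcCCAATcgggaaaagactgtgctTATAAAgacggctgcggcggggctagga
H4C8, chr6:26285535-26285784, minus strand: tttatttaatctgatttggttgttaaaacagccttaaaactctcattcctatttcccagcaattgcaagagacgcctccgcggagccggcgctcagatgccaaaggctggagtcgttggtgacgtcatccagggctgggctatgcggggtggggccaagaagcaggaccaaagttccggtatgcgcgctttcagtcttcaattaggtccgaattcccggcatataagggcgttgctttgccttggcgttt
CCAAT was found on either strand in 58 of 68 promoters of 64 clustered genes (85.3%) and in 32.0% of all 35116 RefSeq promoters. TATAAA was found in 66.2% and 10.7%, and ATTTGCAT, the octamer known from H2B promoters, in 39.7% and 1.63%. TATAAA and its complement can overlap each other. All 20 H2B promoters held CCAAT and 15 held the octamer, and all 16 H2A promoters held CCAAT and 11 the octamer. Of 13 H4 promoters, 3 held CCAAT and 0 the octamer. Neighbouring H2A and H2B genes on opposite strands, such as H2AC6 and H2BC4, can share nearly the same upstream bases. H2BC21 held all 3 motifs, H2BC5 and H3C14 held CCAAT and TATAAA, and H4C8 held none of them. These are matches of letters, and the files hold no binding data.

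Factors that transcribe, cut, bind or degrade clustered histone mRNA were taken as a list of 28 genes, all tested. The list also holds the cell-cycle regulators CDK2, CCNE1, CCNE2 and E2F1. In p53-null cells 1 was called higher and 11 lower, and in Y220C cells 7 higher and 9 lower, with medians of -0.08 and -0.06. Of all tested genes, 14.8% and 13.3% were called higher and lower in p53-null cells and 24.9% and 23.6% in Y220C cells, so the 7 higher in Y220C cells are near the background. CCNE2, which encodes the S-phase cyclin E2, fell from 10.4 ± 2.07 to 5.13 ± 0.81 CPM in p53-null cells (a log2 fold change of -1.03, SE 0.15, adjusted p = 1.57e-05) and from 6.09 ± 0.98 to 2.22 ± 0.37 CPM in Y220C cells (-1.46, SE 0.18, adjusted p = 8.01e-07). E2F1, a transcription factor of S-phase entry, changed by -0.73 (SE 0.08) and -1.24 (SE 0.10), and CDK2, the kinase partner of cyclin E, by -0.64 (SE 0.05) and -0.69 (SE 0.05). ERI1, an exonuclease that trims the histone stem-loop, fell by 0.41 on the log2 scale in p53-null cells (SE 0.04, adjusted p = 4.66e-08). TUT7, a uridylyl transferase, rose in Y220C cells (0.77, SE 0.07, adjusted p = 1.51e-08), more than in p53-null cells (difference 0.51, SE 0.10, adjusted p = 0.000855). ZNF473, which takes part in histone 3′ end cutting, had the largest difference of responses in the list (0.65, SE 0.10, adjusted p = 4.85e-05).

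Among 12 variant histone genes outside the clusters, taken here as the replication-independent list, 11 were tested. In p53-null cells 6 were called lower and in Y220C cells 8, where 13.3% and 23.6% of all tested genes were, with medians of -0.22 and -0.30. Calls in the other direction in this list are not reported here. H2AX, which encodes the variant phosphorylated at DNA breaks, fell from 201 ± 12.4 to 127 ± 0.61 CPM in p53-null cells (a log2 fold change of -0.67, SE 0.06, adjusted p = 1.44e-08) and from 185 ± 5.08 to 92.2 ± 10.4 CPM in Y220C cells (-1.01, SE 0.06, adjusted p = 1.75e-11). CENPA, the centromeric H3 variant, changed by -0.69 and -0.71 (SE 0.06 each), and H2AZ1 by -0.48 and -0.61 (SE 0.08 each), all called.

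Of 24 histone chaperone and import genes, all tested, 2 were called higher and 18 lower in p53-null cells and 2 higher and 20 lower in Y220C cells, with medians of -0.28 and -0.36. The shares of all tested genes called lower were 13.3% and 23.6%. MCM2, a helicase subunit that also binds H3 and H4, fell from 251 ± 16 to 138 ± 6.17 CPM in p53-null cells and from 156 ± 6.33 to 69.8 ± 2.76 CPM in Y220C cells (log2 fold changes -0.86 and -1.16, SE 0.05 each, adjusted p = 1.03e-11 and 6.18e-14). ASF1B, which hands H3 and H4 to the assembly factors, changed by -0.83 and -1.17 (SE 0.05 each), and CHAF1B, a subunit of chromatin assembly factor 1, by -0.76 (SE 0.06) and -1.14 (SE 0.07). MMS22L and TONSL, which act together at replication forks, changed by -0.75 and -0.63 in p53-null cells and by -0.82 and -1.07 in Y220C cells. SLBP itself was at -0.05 (SE 0.04, not called) in p53-null cells and 0.11 (SE 0.04, adjusted p = 0.0151) in Y220C cells, and was named after its values were seen.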

How the data were processed

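Expression was measured by RNA-seq of poly(A)-selected RNA in 16 libraries of 4 groups. The deposited tables give estimated counts (NumReads) and TPM per transcript, per the file headers, whose columns are those that Salmon writes. Per the submitters' processing notes, FastQC 0.11.8 and build hg38 were used. The sources used here do not give the quantifier's version, annotation or strand setting. Estimated counts were summed per gene (193348 of 197653 transcripts matched to GENCODE 29; unmatched transcripts held 0.278% to 0.325% of reads) and rounded to whole numbers.

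All 15687 genes kept by edgeR's filter on low counts were fitted in one model of 4 group means (TMM scaling, edgeR 4.0.16 quasi-likelihood test, R 4.3.3), with Benjamini-Hochberg adjustment over all of them and calls at 0.05. Standard errors were computed from the test statistic. Levels are TMM-scaled CPM, and levels between genes are compared in deposited TPM, which the authors scaled by effective length. Transcripts were fitted the same way, with no filter and the replicate block as alternatives. The procedure was tested on simulated data. Symbols were matched by gene ID for 65 genes and by older symbol for 4. Promoters are from RefSeq on GRCh38.p14.

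The genes and lists were chosen with earlier results of these data known. Genes past the threshold in any comparison were named, with the 3 tested genes of highest mean TPM per class. Up to 4 genes with the largest change were named from each further list. The alternatives were DESeq2 1.42.0, RLE scaling, other filters, length-scaled TPM, only the groups compared, the replicate number as a block, a term for or a restriction to libraries with at least 10 PTPRC reads, and leaving out each library. Summing near-identical pairs was added after seeing the data. Some results for single genes are not reported here.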

Additional observations from a re-analysis of the deposited data

Results flagged for a closer look

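In groups of 4 libraries, a single library stood far from the others in 4 of 92 groups examined, where chance gives about 1 in 20. They were H2AC20 in Null DMSO 1 (0.644 CPM), H2BC9 in Y220C DMSO 3 (2.44 CPM), H2AC19 in Y220C DMSO 1 (5.10 CPM, where its twin H2AC18 held 3.56 CPM) and H3C8 in Null MS78 1 (2.02 CPM).

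The response to MS78 differed between the lines, by the interaction term of edgeR's quasi-likelihood test, for 9 genes. The log2 difference, Y220C minus p53-null, was 2.32 for H3C14 (adjusted p = 9e-05), 2.32 for H4C8 (5.93e-05), 1.87 for H4C14 (0.000565) and 1.08 for H2BC15 (0.000549). It was 1.03 for H2BC11 (0.000628), 0.62 for H1-2 (0.00186), 0.48 for H2AC6 (2.05e-05) and 0.48 for H2BC5 (0.00736). H2BC21 alone was negative, at -0.58 (0.000206).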

How the results depend on the processing

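No called value of a named gene reversed its direction from the main fit under any alternative run. H2AC18, which the main filter left out, was called in both directions between the lines under DMSO. It was higher in Y220C cells within the libraries with PTPRC reads and lower within those without them. Its reads lay in Y220C DMSO 1 in the first set and in Null DMSO 2 in the second. Over the genes named by the rule above, which leaves out H2AC8, H2AC18 and H4C9, 2338 values kept their side of the threshold, 73 lost a call and 26 gained one. Leaving out each library in turn gave 5 to 7 genes higher and 0 to 1 lower in p53-null cells, 13 to 15 higher and 2 to 3 lower in Y220C cells, 8 to 9 positive and 1 to 2 negative differences of the responses, and 3 to 5 higher and 2 to 4 lower between the lines. The single lower call in p53-null cells was H2BC9, without Null DMSO 1 or Y220C MS78 2. The second negative difference was H2AC20, without Y220C MS78 4, and 4 genes were lower between the lines without Null DMSO 2.

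With no filter on low counts, 2 genes were lower in p53-null cells and 2 differences were negative. With only the groups compared, 1 was lower in p53-null cells and 1 in Y220C cells, and with a minimum of 1 CPM in 4 libraries 1 was lower in Y220C cells. Within libraries with PTPRC reads, 1 was lower in Y220C cells and 2 were higher between the lines. Within libraries without them, 1 was higher in p53-null cells, 9 were higher and 0 lower in Y220C cells, 1 difference was positive and 0 negative, and 2 were higher between the lines. These sets hold fewer samples. In the set with PTPRC reads, the gene lower in Y220C cells was H2AC18, also among those higher between the lines. H2AC18 was not tested in the main fit, and its reads were split with H2AC19. With near-identical pairs summed, chosen after seeing the data, 4 were lower between the lines. Otherwise the cause was not tested. Length-scaled TPM called 2839 of all genes in p53-null cells and 2745 for the difference, against 4402 and 4197. Of all genes, the libraries with PTPRC reads alone gave 2346 calls in p53-null cells, 1870 for the difference and 3817 (of 7875) between the lines, and those without gave 1070, 411 for the difference and 3490 (of 7611) in Y220C cells.

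With the replicate block, 14 genes were higher and 2 lower in Y220C cells, 6 and 0 in p53-null cells, 8 and 1 for the difference, and 4 and 2 between the lines. The call it lost was H4C16. Of the transcripts, 13 were higher and 1 lower in Y220C cells with the block. Same-numbered libraries deviated with correlations from -0.50 to 0.45, so the numbers were not taken to pair them. Not every library correlated best with its own number. Genes with few reads, such as H2AC20 and H4C16, are limited by depth.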
